A study of Drosophila melanogaster with 4 samples.

Results

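Internal long exon bins are stretches of exon of at least 1000 nt that lie inside a gene rather than at either end of it. They were taken from the exon table of an mRNA-Seq comparison of Drosophila indirect flight muscle (IFM), in which DEXSeq had cut the exons of each gene into non-overlapping bins. In genes with at least 3 listed bins, a bin was chosen if it was neither the 5′-most nor the 3′-most listed bin, was at least 1000 nt wide and had a mean count of at least 50 over the libraries. This gave 2203 bins of 46187 in the table (4.77%), in 1659 of 9639 genes. IFM was dissected from 1 d adult bru1M3 flies and from 1 d adult w1118 flies, the control strain, both raised at 27 °C. The bru1M3 allele carries a splice-trap cassette upstream of exon 18 of bru1 and truncates every isoform of the protein, so all mutant samples rest on 1 engineered allele. Each genotype had 2 replicates, and each replicate pooled muscle from 100 flies, so differences between single animals cannot be seen. The comparison asks which long internal exons were used differently when Bru1 was truncated.

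Bru1 is an RNA-binding protein of the CELF family, which regulates alternative splicing and the fate of mRNA, and in flies it acts in the fibrillar flight muscle. Most exons of flies are short, while the giant proteins of the sarcomere, which span the Z-disc, the elastic filaments or the M-line, are encoded in part by very long exons that can hold many immunoglobulin or spring-like repeats. A long internal bin can be skipped, joined to a neighbour, or turned into the end of a shorter transcript by an alternative polyadenylation site, and each of these changes its share of the reads of the gene.

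In the normalized gene counts, bru1 itself had 10618 and 9976 in bru1M3 IFM, against 1807 and 1386 in w1118 IFM, a rise of 2.70 on the log2 scale (SE 0.19, adjusted p = 0.000189 with limma). A count of the whole gene cannot show whether the mRNA is intact, so the rise is not read as more Bru1 protein. The paper reports that bru1 mRNA and protein were almost undetectable in the mutant, and predicts a phenotypic null. It also reports more bru1 mRNA holding exons upstream of the cassette. Depth was 30937694 to 34039049 recovered reads in bru1M3 and 30384053 to 34105524 in w1118. Mitochondrial transcripts took 29.0% to 41.2% of the reads in bru1M3 and 63.7% to 72.6% in w1118, which left 19999967 to 21962285 reads of nuclear genes in bru1M3 and 8326712 to 12395680 in w1118, so the w1118 values are the less precise. The 5 fibrillar muscle markers Act88F, fln, TpnC4, Mf and Strn-Mlck were all present and summed to 972420 and 1367628 normalized counts in bru1M3, against 1022095 and 1007792 in w1118. The 3 photoreceptor markers ninaE, trp and norpA summed to 474 and 634 in bru1M3 and to 2580 and 663 in w1118, so w1118 replicate 1 stood apart. The sums hide a low bru1M3 replicate 1, where norpA had 469 and ninaE and trp had 2.05 each. In the same order, ninaE and trp had 97.7 and 28.5 in bru1M3 replicate 2 and 80.0 and 37.2 in w1118 replicate 2. Nothing in the labels says whether the pools were dissected on separate occasions, and the p-values measure only the spread between these samples.

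Use of a bin was read from the exon usage score that the deposited table gives for each genotype. The score is on a variance-stabilised scale, has the change of the whole gene taken out, and pools both replicates. It was taken back to a count scale, and the usage log2 ratio given below is bru1M3 over w1118 on that scale, with a ratio of at least 2-fold in either direction counted as used more or used less. There is 1 score per genotype and no spread between replicates, so none of the usage ratios has a test, and each is a description of these libraries. Use is relative within a gene, so a bin that takes a smaller share raises the share of the others. Coordinates are those of the deposited table (BDGP6.22), and bins are numbered along the chromosome, so that in genes on the minus strand the highest number is nearest the promoter.

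The 2203 bins were 1000 to 14931 nt wide, with a median of 1447 nt and quartiles of 1180 and 2026 nt. Their mean count ran from 50.05 to 572141, with a median of 327, or 195 per 1000 nt. Most genes had a single such bin (1270 genes), 288 had 2, 74 had 3 and 27 had 4 or more, up to 15 in sls. In the Ensembl 115 annotation, 1996 of the bins were a whole annotated exon, 1452 were internal in every transcript that held them, 627 were the last exon of some transcripts, and 85 were the first exon of some. Coding sequence filled 1330 bins, 729 were coding in part and 144 were non-coding. Of the 1251 bins that were whole internal coding exons, 467 had a width that was a multiple of 3, which leaves the reading frame unchanged when the exon is skipped. No exon of another annotated gene lay over 2133 of the bins. At the edges of the rule, the 5 narrowest bins inside it were 1000 nt wide with usage log2 ratios of -0.42 to 0.73, and the 5 widest outside it were 998 or 999 nt wide with ratios of -0.01 to 0.63. The 5 bins just above the minimum had mean counts of 50.05 to 50.7 and ratios of -0.38 to 0.77, and the 5 just below it had 49.3 to 49.9 and 0.28 to 0.60.

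Most long internal bins were used alike in both genotypes. The median usage log2 ratio was 0.02, with quartiles of -0.20 and 0.21, and 1855 of the 2203 bins (84.2%) were within 0.5 of no change. In bru1M3, 26 bins were used more by at least 2-fold and 44 were used less, and 20 passed 4-fold. These are 1.18% and 1.997% of the bins, beside 1.99% used more and 2.20% used less among all 30280 bins with a mean count of at least 50. Over all 20242 internal bins these shares were 2.26% and 2.03%. Internal bins under 1000 nt had 2.39% used more and 2.03% used less (18039 bins), and the first and last listed bins from 1000 nt had 1.21% and 3.58% (1647 bins). The long bins thus had a share used less near the background and a share used more below it, and neither difference has a test. Of the 26 bins used more, 10 have a mean count over 2-fold away from the value their scores give on the count scale, and 16 remained without such bins. The 10 are for bin 9, sals bin 9, Strn-Mlck bin 22, CLIP-190 bin 25, smash bin 14, Gba1a bin 2 and sls bins 26, 27, 28 and 31. Scores have the change of the whole gene taken out and the mean count does not. Bins used more in a gene higher in bru1M3 can therefore depart in this way, while none of the 44 bins used less did. The departure is thus tied to direction and is not a separate check of the ratios. Gba1a, which had 0 normalized counts in both w1118 libraries, had scores of only 0.67 in bru1M3 and 0.42 in w1118 at this bin, and its ratio is not read further. The histogram of usage ratios sets the long internal bins beside the shorter ones.

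**Figure D1:**
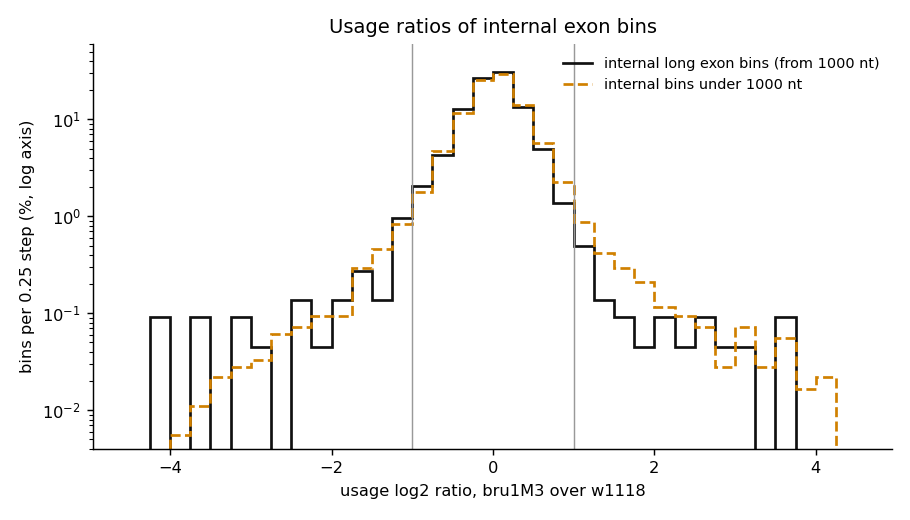
Usage log2 ratios (bru1M3 over w1118, horizontal axis) of the 2203 internal long exon bins (solid black) and of the 18039 internal bins under 1000 nt (dashed orange), as the percentage of each set per step of 0.25 (vertical log axis). Grey lines mark 2-fold, which 26 long bins passed upward and 44 downward.

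Most of the bins past 2-fold were carried by only part of the transcripts of their gene. Of the 70, 55 lay in bins listed for some transcripts of their gene and 15 in bins listed for all of them. Among the 439 long bins of the first kind, 18 were used more (4.10%) and 37 less (8.43%), while among the 1764 of the second kind 8 were used more (0.454%) and 7 less (0.397%). Shorter internal bins had 6.67% and 6.72% of 4315 bins in part of the transcripts and 1.04% and 0.554% of 13724 bins in all transcripts. By position, bins that end some transcripts had 6 used more and 21 used less of 627 (0.957% and 3.35%), and their median ratio was -0.07. Shorter internal bins of this kind leaned the same way, with 2.23% and 4.25% of 1977 bins and a median of -0.08. Bins that were internal wherever they occurred had 18 used more and 19 used less of 1452 (1.24% and 1.31%), with a median of 0.04. Shorter ones had 2.15% and 1.48% of 13931 bins. Non-coding long bins had 1 used more and 8 used less of 144 (0.694% and 5.56%), with a median of -0.15. The 1330 fully coding bins had 17 more and 15 less (1.28% and 1.13%), with a median of 0.05. Shorter internal bins had 5.11% and 4.80% of 1937 non-coding bins, and 1.94% and 1.24% of 13103 coding bins. Of the 467 whole coding exons with a width that was a multiple of 3, 4 were used more and 5 less (0.857% and 1.07%). Of the 784 with another width, 10 were used more and 7 less (1.28% and 0.893%). Both pairs lie near the shares of all fully coding long bins, and no difference has a test. Of the 101 bins with the highest mean counts, 5 were used more and 10 less (4.95% and 9.90%), beside 3.87% and 4.14% of 724 shorter internal bins in the same count range. With a running median in place of the fitted curve, 6 of the 101 were used more and 6 less.

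**Figure D2:**
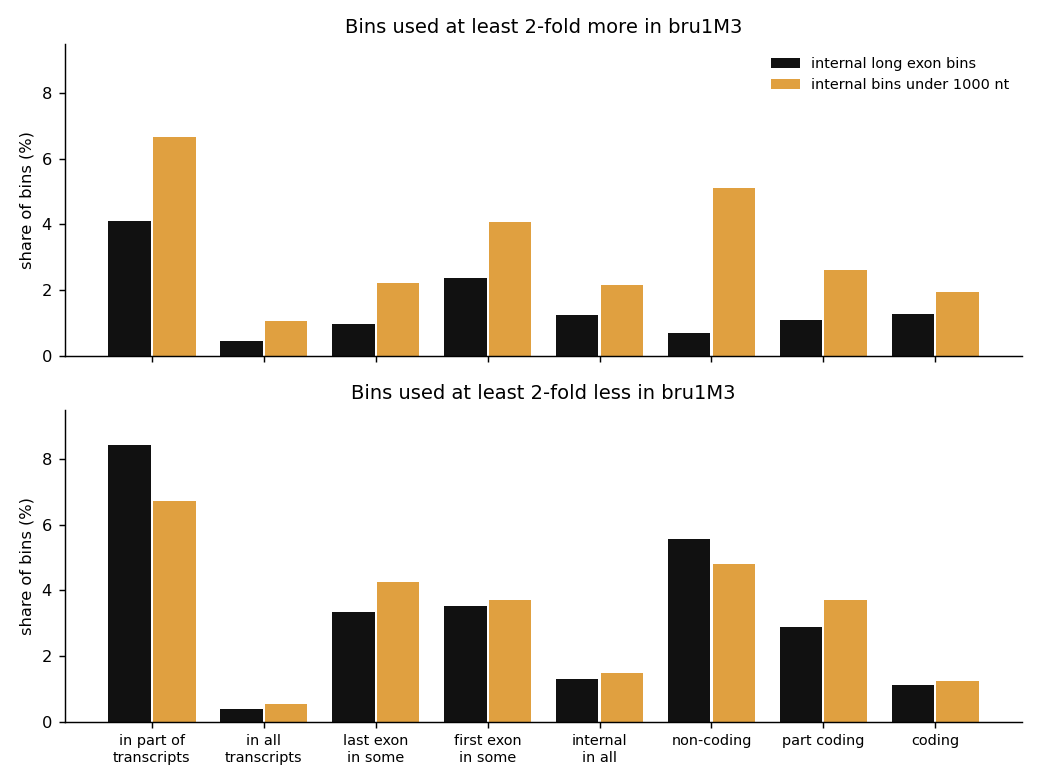
Share of bins (%) used at least 2-fold more (upper panel) or less (lower panel) in bru1M3, for internal long exon bins (black) and internal bins under 1000 nt (orange), by transcript share, exon position and coding content in the annotation. Of the long bins carried by part of the transcripts, 4.10% were used more and 8.43% less, against 0.454% and 0.397% of those in all transcripts.

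Bins of sarcomere and giant cytoskeletal genes passed 2-fold at a higher rate than the other bins, a comparison that has no test. The lists of sarcomere genes and of giant cytoskeletal genes together name 98 genes, of which 44 had 95 long internal bins. In these bins 8 were used more and 13 less (22.1% past 2-fold, median ratio -0.000851, quartiles -0.33 and 0.24), beside 18 and 31 of the other 2108 bins (2.32%). Of these, sls gave 4 used more and 2 used less, and Strn-Mlck 1 and 2, and neighbouring bins of a gene are not independent. The 758 shorter internal bins of the listed genes had 77 used more and 71 used less. Among all internal bins under 1000 nt the shares were 2.39% and 2.03%, so the higher rate was not particular to long bins. The lists were drawn up with results of these data known, so the counts describe the genes and do not test them.

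The gene sls encodes Sallimus and Kettin, titin-like proteins that tie the Z-disc to the thick filament. It holds 15 long internal bins, the most of any gene, and they split into blocks. sls bin 20 (3L, 2076902 to 2077962, 1061 nt) had a usage score of 25.5 in bru1M3 and 33.0 in w1118, a usage log2 ratio of -2.79, and it stood in a run of 5 neighbouring bins, 18 to 22, that were all used less, with ratios of -3.27 to -2.21. With the running median the ratio of sls bin 20 was -1.97. The next run, bins 23 to 32, went the other way in all 10 of its bins, with ratios of 2.29 to 3.74. In that run sls bin 26 (3L, 2080164 to 2081390, 1227 nt) scored 16.6 in bru1M3 and 7.94 in w1118, a ratio of 3.62. sls bin 27, a coding stretch of 5496 nt (3L, 2081689 to 2087184), scored 23.5 in bru1M3 and 16.6 in w1118, a ratio of 2.62, and sls bin 31 (3L, 2091248 to 2092559) scored 26.1 and 19.0 in the same order, a ratio of 2.68. sls bin 28 (3L, 2088538 to 2090497) scored 22.0 in bru1M3 and 15.98 in w1118, a ratio of 2.29. This last bin is a non-coding end of 1 of 13 listed transcripts, and an antisense RNA gene, asRNA:CR42860, lies over it. The libraries were stranded, but whether reads were counted by strand is not given in the sources used here, so reads of the pair cannot be told apart. The widest bin of the gene, sls bin 14 (8877 nt), scored 20.1 in bru1M3 and 22.9 in w1118, a ratio of -1.06. The remaining 9 long bins ran from -0.64 to 0.52, among them bins 37, 38, 39 and 41 toward the promoter, which all 13 listed transcripts carry. Level also differed along the gene, with mean counts per 1000 nt of 45.6 in bin 16, 2229 in bin 27 and 28347 in bin 20. The whole gene had 130802 and 171765 normalized counts in bru1M3, against 30423 and 34674 in w1118, and rose by 2.21 on the log2 scale (standard error 0.27, limma adjusted p = 0.00167).

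Strn-Mlck encodes Stretchin-Mlck, a titin-like protein that binds thick filaments of flight muscle. Its 4 long internal bins include the widest of all, Strn-Mlck bin 34 (2R, 15969076 to 15984006, 14931 nt), which scored 17.5 in bru1M3 and 20.0 in w1118, a ratio of -0.97. Strn-Mlck bin 22 (2R, 15957994 to 15959317, 1324 nt) scored 21.2 in bru1M3 and 13.8 in w1118, a ratio of 2.84. It ends a run of 7 listed bins, between 15 and 22, with ratios of 2.42 to 3.12, and the next run, bins 23 to 27, had ratios of -5.95 to -3.01. Bins 28 and 29 were again used more, with ratios of 3.42 and 3.63. Strn-Mlck bin 30 (2R, 15963037 to 15964656, 1620 nt), carried by 1 of 10 listed transcripts, scored 27.7 in bru1M3 and 36.1 in w1118, a ratio of -3.16. Strn-Mlck bin 33 (2R, 15966594 to 15968467) scored 25.8 in bru1M3 and 31.9 in w1118, a ratio of -2.28. Both lie in a run of 4 bins used less, 30 to 33, and with the running median their ratios were -1.44 and -1.69. The gene had 57922 and 139160 normalized counts in bru1M3, against 134346 and 145275 in w1118, values that overlapped, with the first bru1M3 library low. The plot of usage ratios by bin shows the blocks in sls and Strn-Mlck and smaller ones in CG34417, CLIP-190, Doa and Shab.

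**Figure D3:**
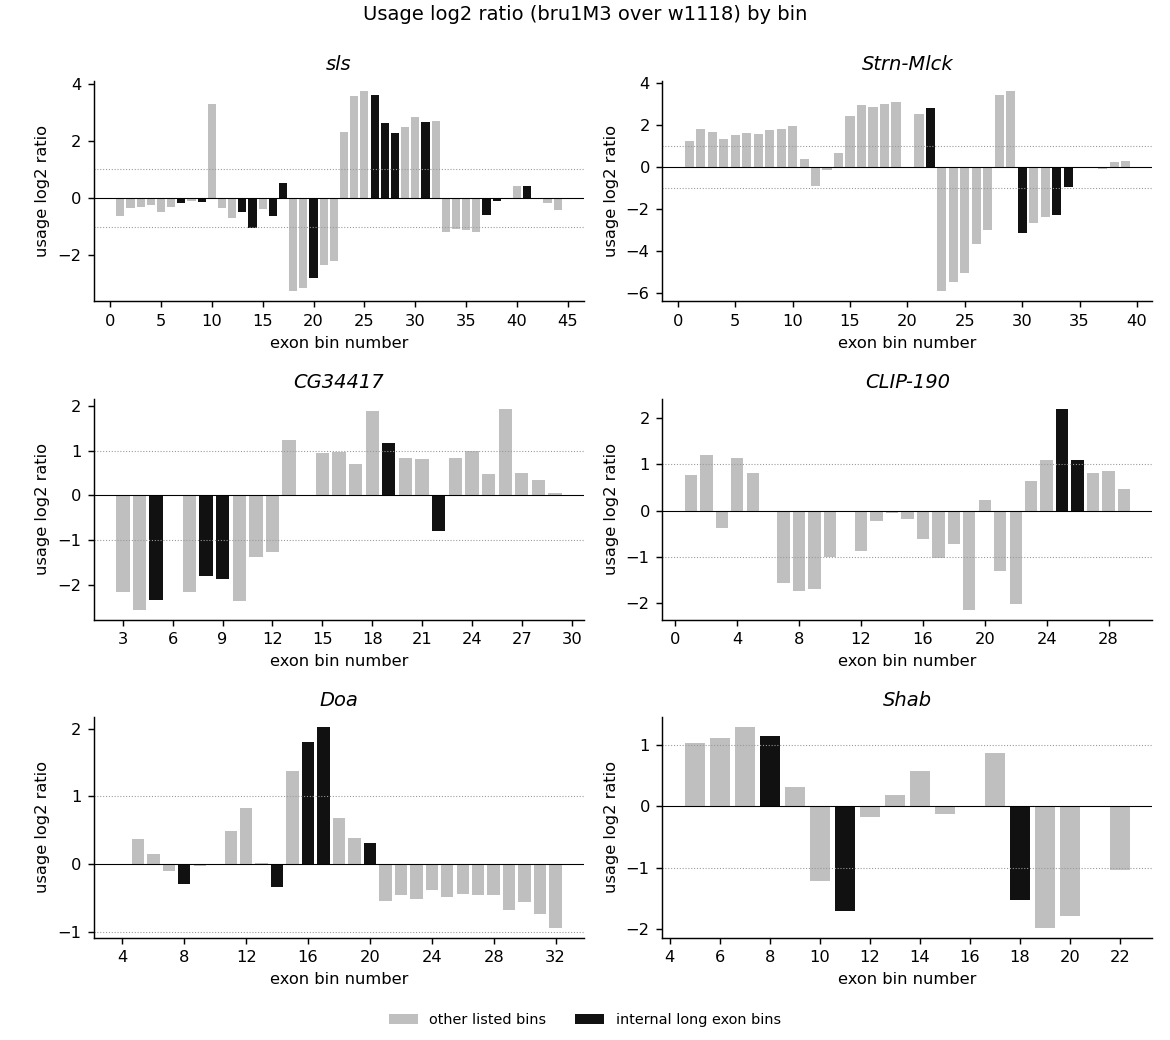
Usage log2 ratio (bru1M3 over w1118) of every listed bin with a score, by bin number, in 6 genes. Black bars are internal long exon bins and grey bars the other listed bins, dotted lines mark 2-fold, the vertical scales differ between panels, and Shab bin 1, with a ratio of 12.80, is left out. Several long bins past 2-fold lie inside blocks of neighbouring bins past it the same way, such as sls bins 23 to 32.

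Prm, bt, Mf and Unc-89, genes of the thick filament, its elastic link and the M-line, each had 1 long internal bin that was used less. Mean counts per 1000 nt in these bins ran from 3760 in Mf to 101556 in Prm. Prm, the paramyosin gene, had bin 5 (3L, 8737021 to 8738087) at 32.4 in bru1M3 and 35.4 in w1118, a ratio of -1.15. Both of its neighbours, bins 4 and 6, were used less too, with ratios of -1.57 and -1.04. In bt, which encodes the elastic filament protein Projectin, bin 50 (chromosome 4, 774915 to 776081) scored 30.6 in bru1M3 and 33.9 in w1118, a ratio of -1.25, while the other 4 long bins ran from -0.71 to 0.04 and included bt bin 42, 9471 nt wide, with -0.22. Mf encodes Myofilin, a thick filament protein, and Mf bin 17 (3R, 15176539 to 15178279), of which 3.22% is coding, scored 21.6 in bru1M3 and 24.9 in w1118, a ratio of -1.23. Unc-89, the obscurin gene of the M-line, had bin 3 (2R, 23996058 to 23997709) at 28.9 in bru1M3 and 31.7 in w1118, a ratio of -1.06. The only long internal bin of Mhc, the muscle myosin heavy chain gene, had a ratio of -0.55 at 225772 mean counts per 1000 nt. At scores this high the count scale depends on the curve: with a running median in its place, the ratios were -0.31 for Prm bin 5, -0.41 for bt bin 50 and -0.53 for Unc-89 bin 3, and none of these 3 passed 2-fold.

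Actin filament genes had bins of both directions. sals, named for its short-sarcomere phenotype and acting at actin filament ends, had bin 9 (3R, 11447119 to 11448359) at 18.8 in bru1M3 and 11.1 in w1118, a ratio of 3.0. Both of its neighbours were also used more. Bin 8 had a ratio of 1.82 at a mean count of only 41.2, and bin 10, with 3.67, is 3 nt wide and abuts bin 9. tmod encodes Tropomodulin, which caps pointed ends, and tmod bin 21 (3R, 30573073 to 30574240), an end exon of 1 of 17 transcripts, scored 11.9 in bru1M3 and 15.9 in w1118, a ratio of -1.60, while its neighbours had 0.15 and 0.79. Fhos encodes a formin that builds actin filaments. Fhos bin 4 (3L, 8759440 to 8761450), in 2 of 9 transcripts, scored 15.03 in bru1M3 and 21.1 in w1118, a ratio of -2.30, and the bin after it, also a long internal bin, had 0.81. hts, the adducin gene, had bin 7 at 6.23 in bru1M3 and 8.20 in w1118, a ratio of -1.01 at a mean count of only 81.0. All 4 genes were higher in bru1M3 by limma: Fhos had 114758 and 126519 normalized counts in bru1M3, against 6724 and 5896 in w1118 (log2 fold change 4.26, adjusted p = 7.5e-05).

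Bins past 2-fold also lay in single genes of calcium handling, microtubules and scaffolds. SERCA, the calcium pump of the sarcoplasmic reticulum, had bin 5 (2R, 23927743 to 23929114), a non-coding end of 1 of 9 transcripts, at 23.2 in bru1M3 and 28.9 in w1118, a ratio of -2.16, and its coding bin 11 had 0.67. RyR, the calcium release channel, had 4 long internal bins with ratios of 0.06 to 0.50 and none past 2-fold. CLIP-190, a microtubule plus-end protein, had bin 25 (2L, 17405485 to 17406941) at 19.0 in bru1M3 and 13.3 in w1118, a ratio of 2.20, and bin 26 (2L, 17406996 to 17408825) at 19.2 and 16.3 in the same order, a ratio of 1.10. dlg1, the Discs large scaffold gene, had bin 16 (X, 11388016 to 11389291) at 4.94 in bru1M3 and 13.7 in w1118, a ratio of -4.14 at a mean count of 168. Its other long internal bin, at 5884 mean counts, had 0.28.

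The highest ratio of all, in a gene of neither list, was that of for bin 9 (2L, 3626337 to 3627525), with scores of 14.4 in bru1M3 and 6.16 in w1118 and a ratio of 3.66. Its mean count is over 2-fold away from the value its scores give, as in other bins used more, and how far this bears on its rank was not tested. for encodes the cGMP-dependent protein kinase Foraging, and the bin after it was used more as well, with a ratio of 3.75. Doa, a LAMMER kinase that acts on splicing factors, had 2 abutting bins, 16 and 17, with ratios of 1.81 and 2.02. Doa bin 17 (3R, 28909655 to 28911177) scored 19.0 in bru1M3 and 13.8 in w1118, while the other 3 long bins of the gene ran from -0.34 to 0.31. smash, which encodes a LIM-domain protein of cell junctions, had bins of both directions, with smash bin 14 (3R, 4702412 to 4705261) at 24.5 in bru1M3 and 21.0 in w1118, a ratio of 1.31, and smash bin 17 at a ratio of -1.36. bun, a TSC-22 family gene, had bin 15 (2L, 12536275 to 12537419) at 11.1 in bru1M3 and 8.28 in w1118, a ratio of 1.23.

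The lowest ratio of all was that of bru1 itself. bru1 bin 21 (2L, 12311204 to 12312311), a non-coding last exon of some transcripts, scored 8.87 in bru1M3 and 19.2 in w1118, a ratio of -4.17, and its neighbours had -2.32 and -2.65. The inserted cassette carries a polyadenylation signal, and the paper reports no detectable signal from a 3′-UTR exon of bru1 in the mutant. The paper places the cassette just before the last coding exon that its isoforms have in common. As a non-coding last exon, bru1 bin 21 lies downstream of that coding exon, and so downstream of the cassette. This order is inferred from the annotation, without comparing coordinates. For this reason the ratio of bru1 bin 21 is not read as exon use regulated by Bru1, though it is counted among the bins used less. CG34417 carried 3 bins used less and 1 used more. CG34417 bin 5 (X, 6552639 to 6554771) scored 11.9 in bru1M3 and 17.8 in w1118, a ratio of -2.32, within a run of 9 listed bins, between 3 and 12, at -2.54 to -1.27. Beyond that run, CG34417 bin 19, a coding stretch of 4887 nt with a mean count of 10443, scored 23.8 in bru1M3 and 20.7 in w1118, a ratio of 1.17. Svil, the supervillin gene, had 6 long internal bins, of which bins 6 and 27 were used less, with ratios of -1.68 and -1.15, and the rest ran from -0.13 to 0.99.

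**Figure D4:**
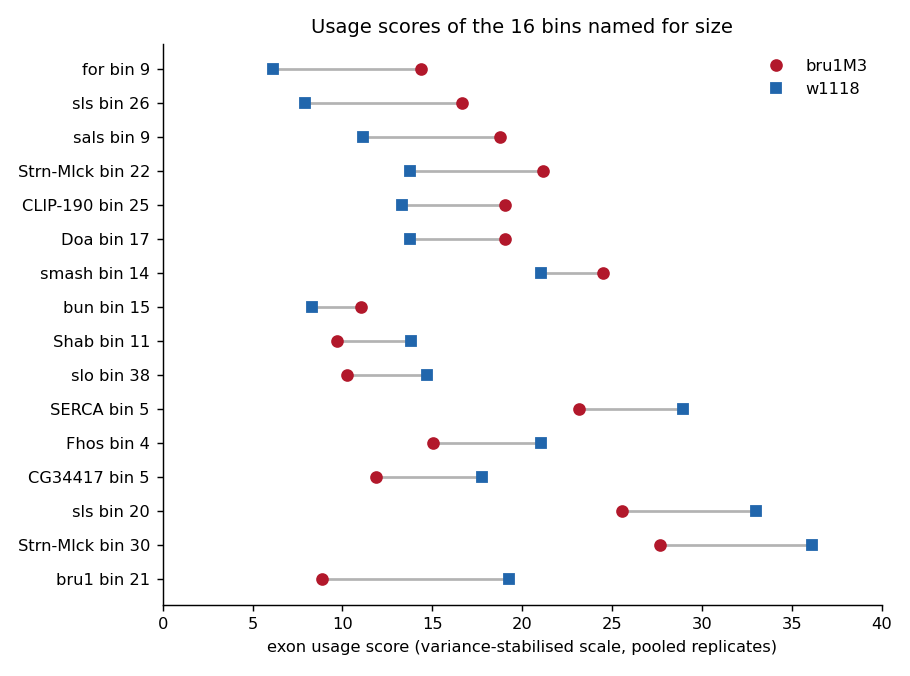
Exon usage scores (horizontal axis, variance-stabilised scale, replicates pooled) in bru1M3 (red circles) and w1118 (blue squares) of the 8 long internal bins with the largest positive and the 8 with the largest negative usage ratio, at most 1 per gene and direction, among bins with a mean count of at least 200. Scores of for bin 9 were 14.4 in bru1M3 and 6.16 in w1118, and those of bru1 bin 21 were 8.87 and 19.2 in the same order. The for, sls, sals, Strn-Mlck, CLIP-190 and smash bins with positive ratios have mean counts over 2-fold away from the value their scores give.

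Genes of membrane excitability held 25 long internal bins, of which 2 were used more and 5 less (28.0% past 2-fold), against 1.18% and 1.997% over all long internal bins. Of the 168 shorter internal bins of the same genes, 10 were used more and 5 less. The list was drawn up with results of these data known, so the counts describe its genes and do not test them. The 7 long bins lay in the potassium channel genes slo, Sh and Shab, in the channel subunit gene Hk and in the pump gene SERCA. Shab alone held 3 of them, and SERCA is also counted among the sarcomere and giant cytoskeletal genes. slo encodes the calcium-activated potassium channel, and slo bin 38 (3R, 24708390 to 24711189), a non-coding end of 2 of 23 transcripts, scored 10.3 in bru1M3 and 14.7 in w1118, a ratio of -1.81. Shab, a voltage-gated potassium channel gene, had bin 11 (3L, 2944023 to 2946408) at 9.69 in bru1M3 and 13.8 in w1118, a ratio of -1.71. Shab bin 18 had -1.53 and Shab bin 8 had 1.15, and the non-coding end Sh bin 6, of 5395 nt in the Shaker gene, had -1.54. Hk bin 13 had 1.60 at a mean count of 64.5. These last 4 bins were named after their values were seen. At the gene level Shab had 2855 and 3129 normalized counts in bru1M3, against 584 and 780 in w1118 (log2 fold change 2.15, limma adjusted p = 0.000467), while slo had 1383 and 1578 in bru1M3 and 1384 and 1495 in w1118. The 4 neuron markers elav, nSyb, brp and Syt1, none of them at 0, summed to 1252 and 1840 in bru1M3, against 3286 and 5171 in w1118, and 2 of them were lower by limma. Their part in the ratios of these channel genes was not tested, and in bulk muscle fewer cells of a type and less RNA per cell cannot be told apart.

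In the other gene lists a smaller share of bins passed 2-fold than in the sets above. Over all long internal bins 1.18% were used more and 1.997% less, and no difference from these shares has a test. Microtubule-associated genes had 175 long internal bins, with 12 used more and 7 used less (10.9%) and a median ratio of 0.01. Their 1123 shorter internal bins had 58 used more and 44 used less. The fibrillar core list had 24, with 1 used more and 3 used less (16.7%) and a median of 0.10, and 31 and 18 of its 354 shorter internal bins. Splicing regulators had 23, with 0 used more and 1 used less, and a median of -0.19. RNA-binding protein genes had 163, with 0 and 2, chromatin and transcription genes 39, with 1 and 0, and growth signalling genes 15 with none past 2-fold. The last 3 lists had medians of 0.02, 0.08 and -0.10. Of shorter internal bins, 9 were used more and 4 less of 161 in splicing regulators, and 18 and 14 of 1116 in RNA-binding protein genes. Chromatin and transcription genes and growth signalling genes had no shorter internal bin past 2-fold. The sarcomere, fibrillar core, microtubule and RNA-binding lists come from a gene table of the study that is held here in part, so they may lack genes, and the lists share genes.

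Neighbouring bins were often past 2-fold the same way as a long bin, a count that has no test. The 70 bins past 2-fold had 140 neighbours with a ratio, and 64 of these passed 2-fold the same way, 7 passed it the other way and 69 were under it. Among all 30280 bins with a mean count of at least 50, 1.99% were used more and 2.20% less. The neighbours had no minimum mean count, and adjoining bins among the 70 count as neighbours of each other. Some neighbours, a few only 3 nt wide, directly abut the long bin and can share reads with it. Part of the agreement can thus follow from how exons were cut into bins. The 70 bins lay in 54 genes, of which 16 held bins used more only, 33 held bins used less only, and 5 held both, namely sls, Strn-Mlck, CG34417, Shab and smash. Of the 27 genes with at least 4 long internal bins, 17 had none past 2-fold, among them dpy, which encodes a giant extracellular matrix protein, with 7 bins at -0.47 to 0.55, and zormin, a Z-disc gene, with 5 bins at -0.56 to 0.43. poe had 5 bins at -0.09 to 0.47 and hth, a homeobox gene, 4 bins at 0.02 to 0.18. After Strn-Mlck bin 34, the widest bins were spen bin 14 (12094 nt) with -0.22 and shot bin 22 (10035 nt), in the spectraplakin gene, with 0.18. The most highly covered was ATPsynbeta bin 6 (444899 mean counts per 1000 nt), of the mitochondrial ATP synthase, with a ratio of 0.08, and ATPsyngamma bin 2 had -0.17. CG32576 bin 2, with a mean count of 104526, had -0.90 on the curve and -0.20 with the running median. The gene CG32576 had only 92.1 and 78.4 normalized counts in bru1M3, against 56.2 and 76.7 in w1118, so the reads of this bin are not read as use within that gene.

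The genes that hold long internal bins were also compared at the gene level. Of the 1658 tested with limma, 321 were higher (19.4%) and 121 lower (7.30%) at an adjusted p under 0.05, beside 12.8% and 9.33% of all 9228 genes tested, with a median log2 fold change of 0.13. These shares were not tested against each other, and the minimum mean count, taken over both genotypes, can admit a gene through its bru1M3 counts alone, as with Gba1a. After quantile normalization 272 were higher and 213 lower, and with equal totals of nuclear genes, which moved the median of all genes to -0.13, 257 were higher and 171 lower. Without bru1M3 replicate 1, the lower genes numbered 46. Of the 54 genes with a bin past 2-fold, 26 were higher and 3 lower, and the 3 were Hk, Sh and Syn. smash had 23260 and 28116 normalized counts in bru1M3, against 1600 and 1280 in w1118 (log2 fold change 4.16, limma adjusted p = 7.4e-05). CG34417 had 14771 and 18480 in bru1M3, against 2968 and 2800 in w1118 (2.52), and CLIP-190 had 3699 and 3830, against 979 and 1057 (1.89). for, sals and tmod rose by 1.71, 1.54 and 1.48 on the log2 scale, hts by 1.30 and dlg1 by 1.06. Prm, bt and Mf rose by 1.29, 1.20 and 1.16, but Prm and bt lost the call without either w1118 library (limma adjusted p = 0.154 and 0.118 for Prm, 0.201 and 0.114 for bt, without w1118 replicates 1 and 2), and Mf lost it without w1118 replicate 2 (0.0669). Doa had 12537 and 17074 in bru1M3 and 14117 and 14635 in w1118, and bun, SERCA and Unc-89 overlapped between the genotypes too. With 2 replicates per genotype, an exact permutation test of 1 gene cannot give a p below 0.333, and the gene-level calls use the variance limma pools over the 9228 genes.

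**Figure D5:**
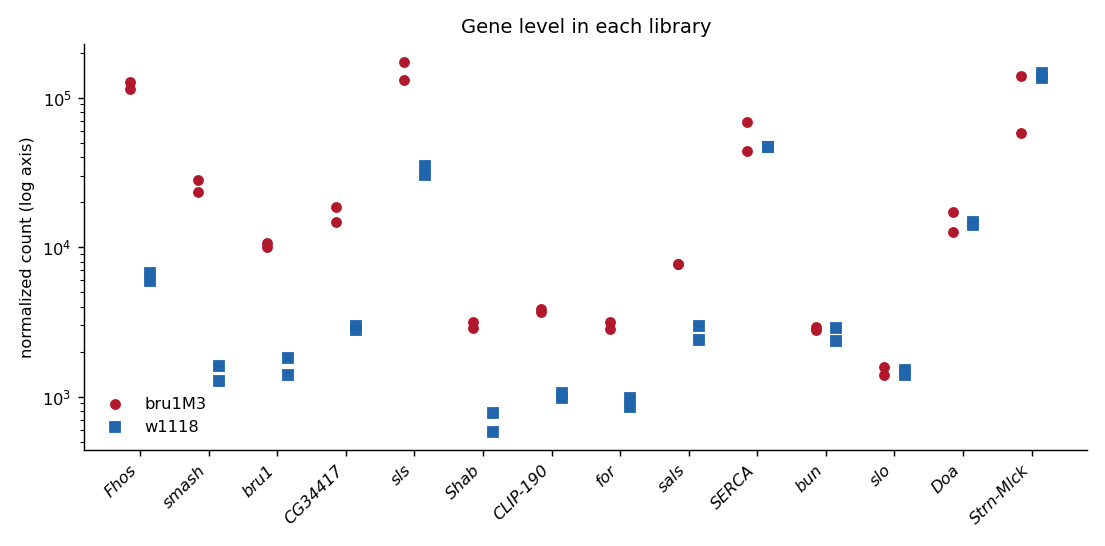
Normalized counts (vertical log axis) of the genes of the 16 bins named for size in each library, with the 2 bru1M3 libraries as red circles and the 2 w1118 libraries as blue squares beside them, ordered by log2 fold change. Fhos had 114758 and 126519 in bru1M3, against 6724 and 5896 in w1118, while slo, Doa, bun, SERCA and Strn-Mlck overlapped between the genotypes.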

How the data were processed

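The authors sequenced poly-A selected, stranded paired-end libraries, mapped reads with STAR 2.7.3a to BDGP6.22 (annotation dmel_r6.32), counted them with featureCounts (Subread 2.0.0) and ran DESeq2 1.32.0 per gene and DEXSeq per bin; tool versions are from the submitters' processing notes, and the rule by which bins were filtered is not given in the sources used here. The deposited gene values are a signal, counts divided by 1 size factor per library, and 100% of them were whole reads within 0.01 read. The deposited exon values are a mean signal per bin and a usage score per genotype. Columns of the authors' fold changes and p-values were not used, nor were 4 per-library exon columns whose names match no sample, so bins were not tested.

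Scores were returned to a count scale by an inverse hyperbolic sine curve fitted over all bins (median error 9.86% on counts), checked on simulated data. Genes were tested with limma 3.58.1 in R 4.3.3 on log2(value + 1), a scale that understates changes of low genes, over 9228 genes that reached 10 in at least 2 libraries, with Benjamini-Hochberg adjustment. Recovered reads were also tested with edgeR 4.0.16 and DESeq2 1.42.0. Other alternatives were other minimum counts, widths, folds and scalings, a replicate block and leaving out each library. Leaving out sls and Strn-Mlck, or bins off the curve, was added after seeing the data.

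Bins named are the 8 largest ratios in each direction (mean count of at least 200, at most 1 per gene), the 5 widest, the 5 highest per 1000 nt, those past 2-fold in sarcomere or giant cytoskeletal genes and those of genes with at least 4; others were named after their values were seen. The bins and gene lists were chosen with earlier results of these data known. Bin positions were classed with the Ensembl 115 annotation, in which both edges of 2190 bins matched exon edges, 13 bins having no gene entry there.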

Additional observations from a re-analysis of the deposited data

How the results depend on the processing

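The median ratio was 0.02, and -0.0135 when centred on all internal bins. Bins used more and used less, 26 and 44, numbered 17 and 29 at a minimum mean count of 200, 46 and 69 with no minimum, 9 and 27 from 1500 nt, 10 and 27 with 1 bin per gene, 115 and 142 at 1.5-fold, 9 and 11 at 4-fold. Without bins off the curve 16 were used more, a setting that took out no bin used less. Without sls and Strn-Mlck 21 were used more and 40 less. With a running median 26 and 41 passed, and beside Prm bin 5, bt bin 50 and Unc-89 bin 3, given above, sls bin 14 (-0.987), Gba1a bin 2 (0.00), Svil bin 41 (1.003) and Strn-Mlck bin 34 (-1.02) crossed 2-fold. The genes lower in bru1M3, 121, numbered 213 after quantile normalization and 46 to 152 with 1 library left out, and 264 to 267 were then higher, against 321. At an adjusted p under 0.01, 191 were higher and 26 lower. edgeR gave 325 and 130, and DESeq2 325 and 143. Same-numbered replicates did not deviate together (correlation 0.03 across 9228 genes, which are not independent), so the numbers do not pair the samples. A replicate block gave 327 higher and 143 lower genes, and bt missed the threshold under it (0.0501). The 15 genes given with a fold change kept their direction under every setting tried, and 189 of those values kept the call while 6, all of Prm, bt and Mf, lost it. Precision is limited by 1 pooled score per genotype and by the few nuclear reads of w1118 replicate 1.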
